A study of Mus musculus with 6 samples.

Results

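The spleen forms from mesenchyme beside the embryonic stomach, and 5 transcription factor genes known for their roles in that primordium, Tlx1, Wt1, Nkx2-5, Tcf21 and Nkx3-2, were followed in cultured gut cells. They were taken by name from 12393 measured genes because of these roles, with earlier results of these data known. Each had 1 probe set among 22690, so 5 of 5 genes were read from 5 probe sets. RNA came from 6 Affymetrix arrays in 3 groups of 2 labelled biological replicates, all from C57BL/6 embryos at embryonic day 13.5 whose tissue was digested with collagenase-dispase and trypsin, to deplete the endoderm, and cultured for 3 days with 20% fetal bovine serum. Barx1 intestine cells carried Rosa26+/Barx1 together with Bapx1+/Cre, so that the homeodomain factor BARX1 was expressed where the Bapx1 locus had driven Cre. The control stomach and control intestine cells, labelled WT, carried Rosa26+/Barx1 or Bapx1+/Cre, and the labels do not say which allele each sample had. Bapx1 is the older name of Nkx3-2, so the locus of 1 of the 5 genes holds the Cre in every Barx1 intestine sample and may hold it in controls.

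In the mouse, spleen precursors arise from the splanchnic mesoderm of the dorsal mesogastrium, and loss of any 1 of several transcription factors leaves the organ small or missing. The homeodomain factor TLX1 marks the condensing precursors and is needed for their survival. NKX2-5 and NKX3-2 are homeodomain factors of the NK class, WT1 is a zinc finger factor and TCF21 a basic helix-loop-helix factor. All have other sites of expression: TLX1 is also found in branchial arches and cranial ganglia, NKX2-5 is prominent in the heart and the pyloric sphincter, NKX3-2 in cartilage and gut mesenchyme, WT1 in mesothelium, kidney and gonad, and TCF21 in visceral mesenchyme and epicardium. BARX1 is a factor of stomach mesenchyme, and mouse embryos that lack it also have an abnormal spleen.

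Levels are log2 values, with array medians of 6.93 to 6.98 and lower quartiles of 4.72 to 4.76. A level at or under the lower quartile was not shown to be above background. Taken over genes, replicate differences had an SD of 0.199 in Barx1 intestine, 0.149 in stomach and 0.232 in intestine, whereas pairs from unlike groups gave 0.295 to 0.420. Barx1 followed the labels, at 8.72 ± 0.10 in Barx1 intestine, 9.81 ± 0.02 in stomach and 5.03 ± 0.15 in intestine (SD, n = 2 each). Col1a2, a collagen gene of mesenchyme, was above the array medians in every group (11.82, 14.28 and 12.30 in the same order), though between stomach and either intestine group it differed more than any other of 12 mesenchyme markers, and it was called higher in stomach (1.98) and lower in Barx1 intestine than in stomach (-2.46). Endoderm RNA was still measured: Cdx2, an intestinal endoderm gene, read 5.20, 5.13 and 5.33, but 0 of 14 endoderm markers lay under the lower quartile on every array, and the median difference of that list between stomach and intestine was -1.03.

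Between control stomach and control intestine cells 4 of the 5 genes were called, where 16.9% of all genes were. Tlx1, Wt1, Nkx2-5 and Tcf21 were higher in stomach by log2 differences of 1.35, 1.33, 1.02 and 0.51, and Nkx3-2 differed by 0.26 without passing the test. The calls of Wt1, Nkx2-5 and Tcf21 were each lost in some fits without 1 array. With BARX1 in the intestine, 0 of the 5 were called against intestine, where 3.98% of all genes were. Tlx1 was not shown to be above background in either intestine group. The measured level of bulk RNA cannot separate a change in the number of cells that express a gene from a change in RNA per cell.

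**Figure D1:**
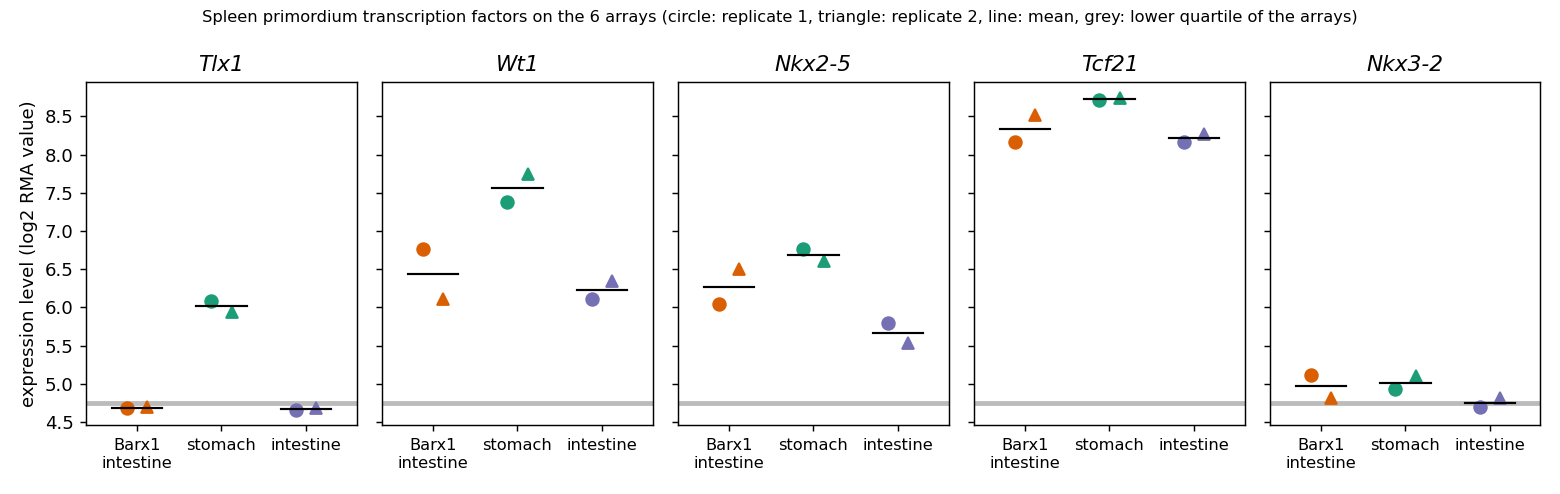
Level of each of the 5 genes (log2 RMA value) on the 6 arrays, with 1 symbol per replicate and a line at each group's mean; the grey band spans the lower quartiles of the arrays (4.72 to 4.76). Tlx1 stands above the band on the stomach arrays and under it on the other 4, while Tcf21 lies between 8.16 and 8.74 on all 6.

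Tlx1 (probe set 1450526_at) read 4.68 and 4.70 on the Barx1 intestine arrays, 6.09 and 5.94 on the stomach arrays, and 4.66 and 4.68 on the intestine arrays. Only the stomach arrays were above the lower quartile, and the other 4 arrays lay within 0.05 of each other. Stomach exceeded intestine by 1.35 on the log2 scale (SE 0.07, 95% interval of the fit 1.17 to 1.52, adjusted p = 0.00124 by limma), a 2.54-fold excess on the linear scale. Since the intestine level was not shown to be above background, the size of this difference is read as a lower bound. It kept its call in 6 of 6 fits that left out 1 array, at an adjusted p of 0.0152 or less. In these fits the group that lost an array keeps 1, which is assumed to vary like the other groups, and the fits without either Barx1 intestine array give the same value here.

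Nkx2-5 (1449566_at) had levels of 6.04 and 6.50 in Barx1 intestine, 6.76 and 6.61 in stomach, and 5.80 and 5.53 in intestine. The arrays fell in the order stomach, Barx1 intestine, intestine with no overlap, and the Barx1 intestine arrays stood furthest apart. Stomach was higher than intestine by 1.02 (SE 0.17, 95% interval 0.59 to 1.46, adjusted p = 0.0180 by limma). The call was lost without stomach replicate 1 (adjusted p = 0.109), without stomach replicate 2 (0.0931) and without intestine replicate 2 (0.0621), with differences of 0.88 to 1.16 throughout.

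Nkx3-2 (1421464_at) stayed low on all arrays, at 5.12 and 4.82 in Barx1 intestine, 4.93 and 5.10 in stomach, and 4.70 and 4.81 in intestine. All were near the lower quartile, and 1 of the 6, an intestine array, lay under it. The stomach arrays were both above the intestine arrays, but the difference of 0.26 (SE 0.12, 95% interval -0.04 to 0.56) did not pass (adjusted p = 0.198 by limma). No value separates the Nkx3-2 allele with the Cre from the one without it.

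Wt1 (1425995_s_at) read 6.77 and 6.11 in Barx1 intestine, 7.38 and 7.74 in stomach, and 6.11 and 6.35 in intestine. Both stomach arrays lay above the other 4, among which Barx1 intestine and intestine overlapped. The excess of stomach over intestine was 1.33 (SE 0.24, 95% interval 0.73 to 1.93, adjusted p = 0.0213 by limma). Leaving out any 1 of the 4 stomach and intestine arrays ended the call, with an adjusted p of 0.0749 without stomach replicate 1, 0.121 without stomach replicate 2, 0.0808 without intestine replicate 1 and 0.0527 without intestine replicate 2.

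Tcf21 (1417447_at) was above the array median on all 6 arrays, with 8.16 and 8.52 in Barx1 intestine, 8.71 and 8.74 in stomach, and 8.16 and 8.27 in intestine. The stomach arrays were again the highest, and the Barx1 intestine arrays spanned the intestine values. At 0.51 (SE 0.12, 95% interval 0.20 to 0.82), the difference of stomach from intestine had an adjusted p of 0.0452 by limma, just inside the threshold. The call ended without stomach replicate 1 (0.168), stomach replicate 2 (0.189), intestine replicate 1 (0.148) or intestine replicate 2 (0.0903).

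Read against all genes, 4 of the 5 were called higher in stomach where 8.86% of the 12393 genes were (16.9% in either direction), and 0 were called lower. The stomach arrays lay wholly above the intestine arrays for 5 of the 5, against 34.5% of all genes. Their median difference was 1.02, against 0.019 over all genes. These counts describe genes that were chosen with earlier results of these data known, and no test over the 5 was made.

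**Figure D2:**
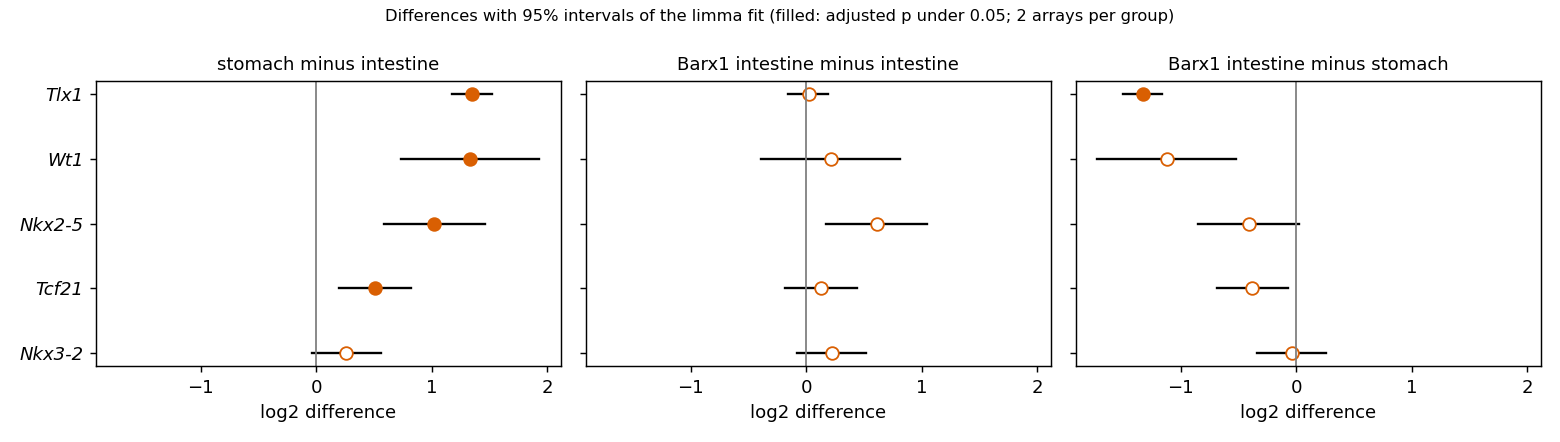
Log2 differences of the 5 genes in the 3 comparisons, with 95% intervals of the limma fit and filled symbols where the adjusted p was under 0.05. Stomach minus intestine has 4 filled symbols, Barx1 intestine minus intestine 0, and Barx1 intestine minus stomach 1, that of Tlx1 at -1.33.

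RefSeq promoter sequences (GRCm38.p6) matched 4 of the 5 genes, Tlx1, Nkx2-5, Tcf21 and Nkx3-2. Those of the 3 that were called higher in stomach are shown because these genes shared that direction, and each covers the 250 bases before the start that the table uses, read 5′ to 3′ along the gene. Capitals mark matches on either strand to TAAT (the core of many homeodomain sites, the class of BARX1, TLX1 and the NK factors), CANNTG (the E-box of basic helix-loop-helix factors such as TCF21), CACTTNA (a site of the NKX2 family) or GCGNGGG (a site of EGR and WT1 zinc fingers).
Tlx1, chr19:45150465-45150714, plus strand: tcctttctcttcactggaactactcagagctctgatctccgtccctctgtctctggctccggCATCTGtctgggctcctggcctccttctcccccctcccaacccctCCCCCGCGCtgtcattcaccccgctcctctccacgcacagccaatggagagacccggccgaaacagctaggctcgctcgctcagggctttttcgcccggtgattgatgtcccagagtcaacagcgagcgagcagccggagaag
Nkx2-5, chr17:26841566-26841815, minus strand: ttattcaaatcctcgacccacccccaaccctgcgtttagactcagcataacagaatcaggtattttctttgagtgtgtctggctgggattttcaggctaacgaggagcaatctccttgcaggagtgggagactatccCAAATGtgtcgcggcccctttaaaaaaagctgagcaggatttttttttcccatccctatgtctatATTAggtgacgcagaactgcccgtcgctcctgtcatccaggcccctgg
Tcf21, chr10:22820144-22820393, minus strand: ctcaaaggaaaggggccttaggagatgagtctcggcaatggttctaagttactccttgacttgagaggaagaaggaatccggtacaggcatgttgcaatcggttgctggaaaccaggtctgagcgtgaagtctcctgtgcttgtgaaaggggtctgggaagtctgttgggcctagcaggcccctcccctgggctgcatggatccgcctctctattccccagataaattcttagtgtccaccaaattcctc
The Tlx1 promoter held an E-box that began at position -188 from the start and a pair of overlapping GCGNGGG matches on the opposite strand at -143 and -141. In the Nkx2-5 promoter an E-box began at -113 and TAAT stood on the opposite strand at -48. The Tcf21 promoter had 0 matches to any of the motifs, also in the 50 bases after the start that are not printed. The Nkx3-2 promoter held 2 E-boxes, at -246 and 34, and 1 TAAT at 8, where positive positions lie after the start. Among all 32851 RefSeq promoters of 300 bases, 58.0% held TAAT, 72.3% an E-box, 11.5% CACTTNA and 23.2% GCGNGGG. The stretches printed for Tlx1 and Nkx2-5 lie inside the annotated genes (chr19:45150092-45156943 and chr17:26838664-26844988). Sequence upstream of these 2 spans was not searched. A match is a description of the letters and not a binding site.

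Barx1 intestine was next set against intestine, to read the 5 genes under ectopic BARX1. Of the 5 genes, 0 were called by limma, where 3.98% of all genes were called in either direction, and 1 had an unadjusted p under 0.05, as did 23.6% of all genes. That gene was Nkx2-5, which read 6.27 ± 0.32 in Barx1 intestine and 5.66 ± 0.20 in intestine (SD, n = 2 each). The difference was 0.61 (SE 0.17, 95% interval 0.17 to 1.04, unadjusted p = 0.0146, adjusted p = 0.114). Over the fits that left out 1 array it ranged from 0.38 to 0.84, with an adjusted p of 0.132 or more.

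The other differences of Barx1 intestine from intestine were smaller. Tlx1 averaged 4.69 ± 0.01 in Barx1 intestine and 4.67 ± 0.01 in intestine, a difference of 0.02 with a 95% interval of -0.16 to 0.19 (adjusted p = 0.920 by limma), on levels not shown to be above background. Barx1 itself differed by 3.69 in the same arrays (95% interval 3.47 to 3.92). For Wt1 the difference was 0.21, with an interval of -0.39 to 0.81 that does not set it apart from no change or from a log2 change of 0.5. Without Barx1 intestine replicate 1 the Wt1 difference was -0.12 and without replicate 2 it was 0.54, so its sign rested on 1 array. Tcf21 differed by 0.13 (95% interval -0.18 to 0.44) and turned to -0.05 without Barx1 intestine replicate 2. Nkx3-2 differed by 0.22 (95% interval -0.08 to 0.52), and by 0.07 to 0.37 when 1 array was left out. Barx1 intestine arrays lay wholly above the intestine arrays for 2 of the 5 genes, Nkx2-5 and, by a gap of 0.01, Nkx3-2, against 30.1% of all genes.

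Set directly against stomach, Barx1 intestine had 1 of the 5 genes called lower, where 2.64% of all genes were, and 3 with an unadjusted p under 0.05, as had 24.2% of all genes. It was Tlx1, at -1.33 (SE 0.07, 95% interval -1.50 to -1.16, adjusted p = 0.00553 by limma), again a lower bound on the size of the gap. The call was lost without stomach replicate 2 (-1.40, adjusted p = 0.0582), a fit in which 0 of all genes were called, and without Barx1 intestine replicate 1 (-1.32, adjusted p = 0.0550). Wt1 read 6.44 ± 0.46 in Barx1 intestine and 7.56 ± 0.26 in stomach, a difference of -1.12 (SE 0.24) that was not called (adjusted p = 0.0605 by limma). It passed with a variance trend (adjusted p = 0.0325 by limma) but not with a replicate block (adjusted p = 0.11 by limma). Without 1 array in turn the Wt1 difference ran between -1.45 and -0.79.

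Nkx2-5 differed from stomach by -0.41 (95% interval -0.85 to 0.02) and Tcf21 by -0.38 (-0.69 to -0.07), with adjusted p of 0.224 and 0.139. Without 1 array in turn these ran between -0.64 and -0.18 for Nkx2-5 and between -0.56 and -0.20 for Tcf21, so their size rested on single arrays. For Nkx3-2 the difference was -0.04 (-0.34 to 0.26). Barx1 intestine arrays lay wholly below the stomach arrays for 4 of the 5 genes, all but Nkx3-2, against 28.5% of all genes. The comparisons share arrays, so their values are given side by side and not as independent evidence.

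The replicates of Barx1 intestine were unequal in 4 of the 5 genes. Replicate 1 was above replicate 2 by 0.66 in Wt1 and 0.31 in Nkx3-2, and below it by 0.46 in Nkx2-5 and 0.36 in Tcf21, whereas Tlx1 differed by -0.01. In stomach and intestine the replicate differences of the 5 genes were at most 0.36 in size, which only Wt1 and Nkx2-5 exceeded in Barx1 intestine. Taken over genes, the replicate SD of Barx1 intestine (0.199) was smaller than that of intestine (0.232). On the same Barx1 intestine arrays the summed level of 14 leukocyte markers was 11.69 and 12.68, of 14 endoderm markers 13.48 and 12.82 and of 9 mesothelial markers 10.28 and 9.87, replicate 1 first. Whether these differences bear on the 5 genes was not tested.

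Other genes of spleen formation were read from a list of 14, of which 12 were measured. In stomach 7 were higher than in intestine and 1 was lower. Besides Barx1 they were Meis1 (1.13), a TALE homeodomain partner of HOX and PBX proteins, and Nr2f2 (0.94), an orphan nuclear receptor of visceral mesenchyme. Meis2 (0.79), Fgf10 (0.46), a secreted growth factor, Pbx3 (0.41) and Pbx2 (0.24) completed the set, of which Meis2, Fgf10 and Pbx3 were named after their values were seen. Nkx2-3, a homeobox gene of gut mesenchyme that the spleen also needs, was lower, at 7.88 ± 0.13 in stomach and 10.20 ± 0.15 in intestine (difference -2.31, SE 0.17, adjusted p = 0.00309 by limma). Averaging its 3 probe sets gave -1.34. The list had a median difference of 0.44, against 0.019 over all genes, of which 8.86% were called higher and 8.09% lower.

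With BARX1 in the intestine, 3 of the 12 were higher than in intestine and 1 was lower, where 1.86% and 2.12% of all genes were. Barx1 is the expressed gene and rose by design. Meis1 averaged 9.40 ± 0.06 in Barx1 intestine and 8.64 ± 0.00 in intestine (SD, n = 2 each; difference 0.76, adjusted p = 0.00836 by limma), and Pbx2 differed by 0.33 (adjusted p = 0.0423). Nkx2-3 had a difference of -1.83 (adjusted p = 0.0132), or -1.17 over its 3 probe sets, and Pbx2 one of 0.15 over its own. Nr2f2 read 9.32 ± 0.01 in Barx1 intestine, against 10.24 ± 0.05 in stomach and 9.30 ± 0.03 in intestine. Like Tlx1, it was thus called lower than stomach (-0.92, adjusted p = 0.00832) with a difference of 0.02 from intestine. Averaged over its probe sets, these Nr2f2 differences were -0.82 and 0.12. Pbx2 and Fgf10 lost every call in all 6 fits that left out 1 array, and Nr2f2, Meis1 and Nkx2-3 kept theirs between stomach and intestine in 6 of 6. Against intestine, Barx1 intestine kept the Meis1 call in 5 and the Nkx2-3 call in 4 of 6 fits, and against stomach it kept those of Nr2f2 in 3 and Meis1 in 2.

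**Figure D3:**
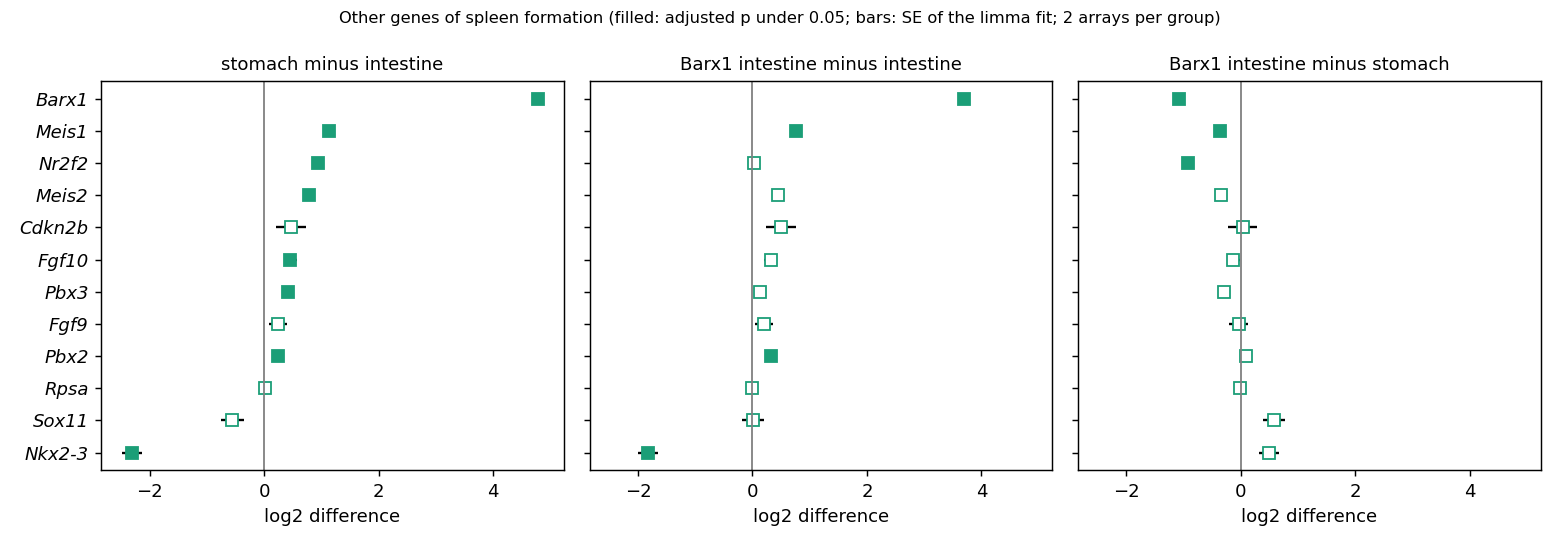
Log2 differences of the 12 measured other genes of spleen formation in the 3 comparisons, with the SE of the limma fit as bars and filled symbols where the adjusted p was under 0.05. Meis1 is filled in all 3 panels, whereas Nr2f2 is at 0.02 in the middle panel and at -0.92 on the right.

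Nkx2-5 also marks the pyloric sphincter, and 10 other pylorus genes were set beside it. In stomach 4 were higher than in intestine and 0 lower, where 8.86% and 8.09% of all genes were. The higher ones were Isl1 (4.31) and Pitx1 (3.13), both homeobox genes, Six2 (2.09), which marks the pyloric mesenchyme, and Sfrp2 (1.35). Sfrp2 encodes a secreted Wnt antagonist, and its intestine level of 4.67 was under the lower quartile. Without 1 array in turn the Sfrp2 difference ran between 1.17 and 1.54. Its call did not hold in every such fit, unlike those of Isl1, Pitx1 and Six2. In Barx1 intestine 4 were higher than in intestine and 2 lower, where 1.86% and 2.12% of all genes were. Higher were Isl1 (4.56), Pitx1 (2.36), Six2 (2.22) and Gata3 (1.74), and lower were Grem1 (-1.36) and Bmp4 (-1.03). Of these, the calls of Pitx1, Gata3, Grem1 and Bmp4 did not hold in every fit without 1 array. Six2 reached 8.08 ± 0.06 in Barx1 intestine, with 7.95 ± 0.13 in stomach and 5.87 ± 0.10 in intestine, and Gata3 read 7.75 ± 0.36, 5.82 ± 0.09 and 6.01 ± 0.24 in the same order. Gata3 was thus higher in Barx1 intestine than in stomach (1.94, adjusted p = 0.0143), while Bmp4 was lower (-0.78, adjusted p = 0.0158). The Gata3 call lost the threshold in 3 of 6 fits without 1 array, and the Bmp4 call in 4.

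Retinoic acid metabolism, which TLX1 is known to regulate in the mouse spleen primordium, was read from 16 measured genes. Compared with intestine, stomach had 0 higher and 2 lower, with 8 at an unadjusted p under 0.05, where 8.09% of all genes were called lower and 33.7% had such a p. Both called genes encode enzymes of retinoic acid synthesis. Aldh1a3 read 8.76 ± 0.19 in Barx1 intestine, 7.76 ± 0.00 in stomach and 10.77 ± 0.07 in intestine, and Aldh1a1 6.68 ± 0.02, 5.73 ± 0.18 and 7.64 ± 0.15. Each was lower in Barx1 intestine than in intestine (-2.01 and -0.96, adjusted p = 0.00259 and 0.0204) and higher than in stomach (1.00 and 0.95, adjusted p = 0.0143 and 0.0173), where 2.56% of all genes were called higher. Crabp1, a retinoic acid binding protein gene, was higher in Barx1 intestine than in intestine by 2.26 (adjusted p = 0.0239). Rarb, a retinoic acid receptor gene, was lower in Barx1 intestine than in stomach (-1.39, adjusted p = 0.0349). Without 1 array in turn, Aldh1a3 kept its call against intestine in 6 of 6 fits, whereas Aldh1a1 kept it in 1, and Crabp1 and Rarb kept theirs in 2. Against stomach the calls of Aldh1a3 and Aldh1a1 held in 3 and 2 of 6.

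The genes most like each of the 5 were those with the smallest root mean square difference over the 6 arrays after centring each gene, a description with no test. For Tlx1 they were Pkdcc (0.092), Sync (0.123) and Nupr1 (0.149). Pkdcc, a secreted kinase gene, read 8.60 and 8.30 in Barx1 intestine, 9.84 and 9.72 in stomach, and 8.43 and 8.44 in intestine. For Wt1 they were Slc7a3, an amino acid transporter gene (0.158), Stc2 (0.188) and Satb1 (0.203). For Nkx2-5 the nearest were Foxc2, a forkhead factor gene (0.092), the chemokine gene Cxcl12 (0.110) and Loxl1 (0.118). Foxc2 read 8.48 and 8.81 in Barx1 intestine, 9.16 and 9.22 in stomach, and 8.31 and 7.98 in intestine. Replicate 2 was the higher in Barx1 intestine and the lower in intestine, as for Nkx2-5, but the higher in stomach, unlike Nkx2-5. Tcf21 was nearest to Nrp1, a semaphorin and VEGF co-receptor gene (0.042), Fads1 (0.056) and Mmp17 (0.057). Nkx3-2 spanned under 0.5 between group means, and none were named for it.

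Marker lists of other cell types were read on the same arrays, as log2 summed levels without the 5 genes. Mesothelial markers, the list that bears on Wt1 and Tcf21, summed to 9.87 to 10.28 in Barx1 intestine, 9.46 to 9.86 in stomach and 10.27 to 11.00 in intestine. Krt19, a keratin gene that epithelium also expresses, is part of these sums (8.95, 7.99 and 9.66 in the same order). Aldh1a2 is too, at 7.60, 7.62 and 8.16. By mean log2 level the list read 5.85 to 6.05, 5.72 to 5.95 and 6.04 to 6.24, so that stomach and Barx1 intestine overlapped, and its median difference between stomach and intestine, Wt1 and Tcf21 included, was 0.02. Within that list Msln, the mesothelin gene, was lower in stomach than in intestine (-1.13, adjusted p = 0.0175 by limma), a call lost in 3 of 6 fits without 1 array, with a stomach level of 4.52 that lay under the lower quartile. Podxl was also lower (-1.52, or -0.76 over all its probe sets). Bnc1 (1.24), named after its values were seen, and Rspo1 (0.55, over an intestine level of 4.27 under the lower quartile) were higher. Both calls were also lost in some fits without 1 array, with differences of 0.94 to 1.53 for Bnc1 and 0.51 to 0.58 for Rspo1. Upk3b read 5.34, 5.25 and 5.23 in Barx1 intestine, stomach and intestine. Of 11 measured mesothelial genes, Wt1 and Tcf21 included, 4 were higher in stomach than in intestine and 2 lower, where 8.86% and 8.09% of all genes were.

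Gut mesenchyme markers summed to 16.14 to 16.20 in Barx1 intestine, 16.58 to 16.62 in stomach and 16.22 to 16.24 in intestine. Col1a2, with its large excess in stomach, is part of these sums. By mean log2 level the list read 10.34 to 10.49, 10.88 to 10.95 and 10.48 to 10.49 in the same order. Its median difference between stomach and intestine was 0.20. Of the 12, 5 were higher in stomach when set against intestine and 1 lower, where 8.86% and 8.09% of all genes were. Leukocyte markers summed to 11.69 to 12.68, 12.47 to 12.82 and 13.25 to 14.15 in the same order. Of 14 leukocyte genes, 0 passed in stomach against intestine and 7 had an unadjusted p under 0.05, where 33.7% of all genes did. Still, all 14 lay wholly below intestine in stomach, against 29.6% of all genes, with a median difference of -1.02. In Barx1 intestine 4 were called lower than in intestine, where 2.12% of all genes were. There 13 of the 14 lay wholly below intestine, against 22.4% of all genes, with a median difference of -1.84. Endoderm markers summed to 12.82 to 13.48, 12.22 to 12.96 and 13.44 to 14.55. Of the 14, 2 were lower in stomach than in intestine, where 8.09% of all genes were. The part of these lists in the differences of the 5 genes was not tested.

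Pancreas, which also lies beside the spleen primordium, had 5 of 13 measured markers under the lower quartile on every array, Ptf1a, Cpa1, Gcg, Neurog3 and Nkx2-2, and its markers summed to 8.74 to 8.79 in Barx1 intestine, 8.83 to 8.89 in stomach and 8.95 to 9.24 in intestine. Cela1, an elastase gene, was the 1 pancreas marker called in stomach against intestine (-1.24) and in Barx1 intestine against intestine (-1.63). In these comparisons 8.09% and 2.12% of all genes were called lower. By mean log2 level the pancreas list read 4.77 to 4.88 in Barx1 intestine, 4.84 to 4.89 in stomach and 4.81 to 4.83 in intestine. The heart list, relevant to Nkx2-5, had 5 of 12 there, Myh6, Myl2, Tnni3, Tbx20 and Gata4, with sums of 9.99 to 10.46, 10.05 to 10.25 and 9.71 to 10.03. Of the 12, 2 passed as higher in stomach when set against intestine, Tnnt2 (0.92) and Actc1 (0.71). Of all genes, 8.86% were called higher there and 16.9% in either direction. Tnnt2 was also higher in Barx1 intestine than in intestine (0.75), where 1.86% of all genes were. These heart calls were not refitted without 1 array. The part of Tnnt2 and Actc1 in the Nkx2-5 values was not tested. Kidney and gonad markers, relevant to Wt1, summed to 7.83 to 8.00, 7.84 to 7.95 and 7.69 to 7.76, with 2 of 7 under the lower quartile throughout. Among the 7, Lhx9 (1.14) was called higher in stomach than in intestine, where 8.86% of all genes were. Its intestine level of 4.01 lay under the lower quartile. Erythroid markers had 5 of 8 under it, with sums of 7.53 to 7.68 over all 6 arrays, and endothelial markers 5 of 12, among them Pecam1 and Cdh5. Endothelial sums were 9.45 to 9.59 in Barx1 intestine, 9.09 to 9.12 in stomach and 9.84 to 9.86 in intestine.

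**Figure D4:**
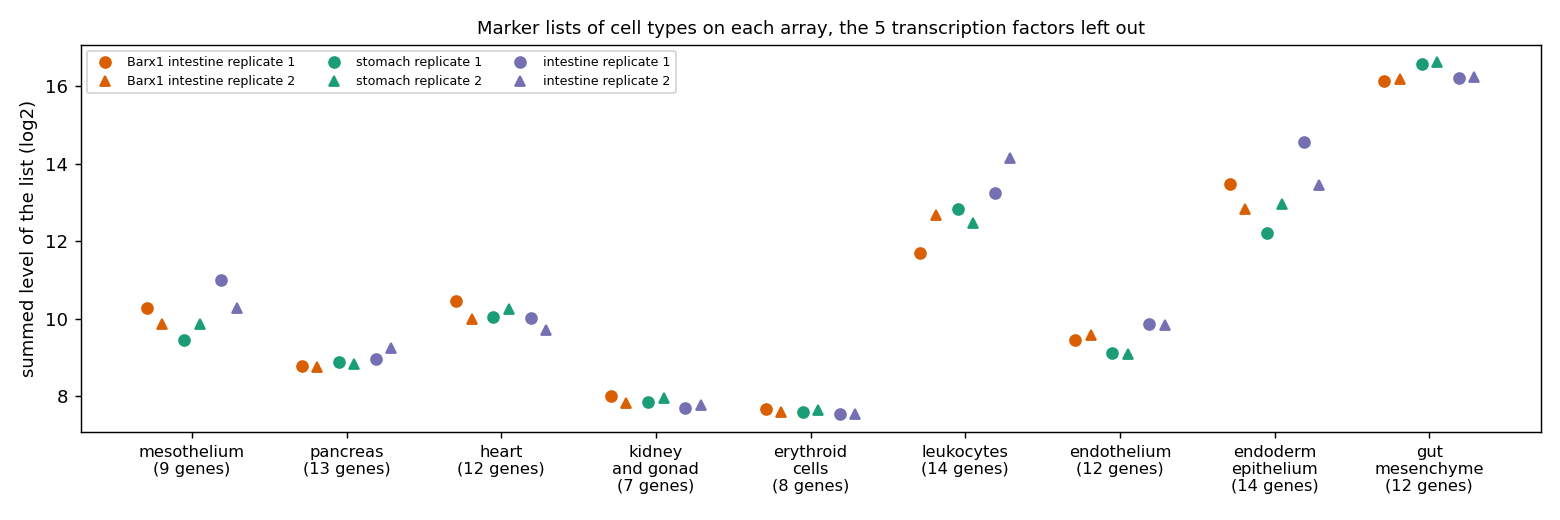
Summed level of each marker list (log2 of the summed linear values) on the 6 arrays, with the 5 transcription factors left out, 1 symbol per replicate and 1 colour per group. Mesothelial sums, which include Krt19, are 9.46 to 9.86 in stomach and 10.27 to 11.00 in intestine. Gut mesenchyme sums, which include Col1a2, are highest in stomach.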

How the data were processed

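Gene expression was measured on 6 Affymetrix arrays, 2 in each of 3 groups that the sample titles name. The log2 values that the authors deposited came from RMA according to the submitters' processing notes, and no version is given in the sources used here. The method subtracts background, makes the distributions of the arrays alike and merges the probes of each probe set, so a shift common to most genes would not be seen. The log2 scale was inferred from the deposited values, whose medians were 6.93 to 6.98. Arrays have no read depth, and their small number sets the precision. Nothing says that the biological replicates came from separate litters, so p-values measure the spread between these samples.

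Probe sets were named from the platform annotation: 20380 named 1 gene, 691 several and 1555 none, besides 64 controls. Identifiers of 20351 matched the RefSeq gene table and 0 symbols changed. Each of 12393 genes was read from its probe set with the highest mean. All 6 arrays entered 1 limma fit of 3 group means (limma 3.58.1, R 4.3.3), which had 3 residual and 2.58 prior degrees of freedom. Benjamini-Hochberg adjustment ran over all genes of each comparison, and genes with an adjusted p under 0.05 were called. Adjusted p-values in the text are those of limma, SE and 95% intervals are those of the fit, and SD is that of 2 arrays. The fit was tested on simulated data.

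The 5 genes and the lists were chosen with earlier results of these data known. The naming rule took the 5 genes and Barx1, up to 4 called genes of each list with the smallest p per comparison, and the 3 genes nearest in pattern. Genes without a probe set naming them alone were not analysed here. Alternatives covered the probe set choice, a filter on dim genes, scaling, variance settings, the samples fitted, a replicate block, each array left out and other thresholds.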

Additional observations from a re-analysis of the deposited data

How the results depend on the processing

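Of the 5 genes, 4, 0 and 1 were called in stomach against intestine, Barx1 intestine against intestine and Barx1 intestine against stomach, and of all genes 2100, 493 and 644. Leaving out each array gave 1 to 4, 0 to 0 and 0 to 1 of the 5 genes, and 281 to 1692, 50 to 466 and 0 to 727 of all genes. An adjusted p under 0.01 left 1 of the 5 (Tlx1) in stomach against intestine and 512, 40 and 11 of all genes, and an adjusted p under 0.1 gave 3310, 1316 and 1516, with 2 of the 5 (Tlx1 and Wt1) in Barx1 intestine against stomach. A log2 difference of at least 1 left 276, 129 and 123 of all genes. A variance trend called 1037 genes in Barx1 intestine against intestine and 1189 against stomach, with 2 of the 5 (again Tlx1 and Wt1) against stomach, and fitting only the 2 groups compared called 50 in Barx1 intestine against intestine. Over 240 refitted differences of the 5 genes, 13 calls were lost, 1 was gained and 0 reversed, and the other thresholds ended 4 more and added 1, while uncalled Barx1 intestine differences of Wt1 and Tcf21 from intestine and of Nkx3-2 from stomach changed sign in fits without 1 array. Among 68 calls of other genes that were refitted without 1 array in turn, 0 changed sign, but most were lost in at least 1 fit. The calls of Col1a2, Cela1, Tnnt2, Actc1 and Lhx9 were not among these 68.

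The replicate numbers were not shown to pair the samples: deviations of replicate 1 from the group mean correlated across genes at -0.06 between Barx1 intestine and stomach, 0.20 between Barx1 intestine and intestine, and -0.22 between stomach and intestine. With a replicate block, 4, 0 and 1 of the 5 genes and 1508, 267 and 337 of all genes were called. With the stomach numbers crossed, a setting chosen after seeing the data, the counts were 4, 0 and 1 of the 5 genes and 1879, 570 and 383 of all genes. Averaging all probe sets of a gene moved Nkx2-3, Pbx2 and Podxl by more than 1.5 times. In Barx1 intestine against intestine it so moved Pitx1 (1.51, against 2.36) and the uncalled Nr2f2 difference (0.12, against 0.02). In Barx1 intestine against stomach it so moved Sync (-0.69, against -1.15). The cause of these movements was not tested. With 1 probe set for each of the 5 genes, averaging probe sets could not test their readings. Tlx1 outside stomach and Nkx3-2 lay near the lower quartile of the arrays, which limits what their differences can show.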

Other observations

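Of 14 measured spleen stroma and lymphoid organiser genes, 3 were called higher and 1 lower in stomach than in intestine. The shares of all genes were 8.86% and 8.09%. Cxcl12, a chemokine gene of stromal cells, averaged 12.55 ± 0.11 in stomach and 11.46 ± 0.06 in intestine (SD, n = 2 each; difference 1.09, adjusted p = 0.0143 by limma). Vcam1, an adhesion molecule gene, differed by 1.07 (adjusted p = 0.0161) and Cxcl13, a B cell chemokine gene, by 0.46 (adjusted p = 0.0322), while Pdpn was lower (-0.47, adjusted p = 0.0241). Of 6 fits without 1 array, Vcam1 kept its call in 4, Cxcl12 in 3, Pdpn in 2 and Cxcl13 in 1. Madcam1 and Tnfsf11 lay under the lower quartile on every array. In Barx1 intestine 1 of the 14 was called against intestine, where 3.98% of all genes were. It was Icam1 at -0.65 (adjusted p = 0.0347 by limma), a call lost whichever array was left out. Leukocyte markers were also lower in Barx1 intestine, and their part was not tested.

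Of 13 measured relatives of the 5 factors, 2 were called in stomach against intestine, a share near the 16.9% of all genes called in either direction. Egr2, a zinc finger gene of the family related to WT1, averaged 6.01 ± 0.01 in Barx1 intestine, 8.15 ± 0.30 in stomach and 5.99 ± 0.63 in intestine, and was higher in stomach than in intestine by 2.16 (adjusted p = 0.0108 by limma) and lower in Barx1 intestine than in stomach by -2.14 (adjusted p = 0.0257), calls kept in 4 and 2 of 6 fits without 1 array. Msc, the closest relative of Tcf21, differed by 0.33 between stomach and intestine (adjusted p = 0.0438), a call lost in 5 of 6 fits without 1 array. Tlx2 and Tlx3 had no called difference between stomach and intestine (-0.21 and 0.24, adjusted p = 0.190 and 0.0939 by limma), and Tlx3 lay under the lower quartile on every array.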
